A study of Mus musculus with 12 samples.

Results

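Presynaptic and synaptic vesicle genes were followed on hippocampal polyribosomes as a list of 36 named genes, out of 24421 gene symbols in the count files. All 36 were present and all 36 passed the filter on low counts. They encode proteins that fill, store, dock, fuse and retrieve synaptic vesicles. The 12 libraries hold polyribosomal RNA from the hippocampus of C57/Bl6 mice aged 6 weeks, 6 labelled control and 6 labelled fear case. The same protocol text stands with every library: 8 min in an unfamiliar context, 7 min in the home cage, with tissue taken at 15 min. The series title speaks of the context exposure and its design text of fear conditioning, and the labels do not say how the control mice were handled or whether a shock was given. They also do not tie each library to a separate mouse, so the p-values here measure only how far these samples spread, and that spread may be technical. Polyribosomes were pelleted through a sucrose cushion for 4 h, and no input RNA was analysed here. In such samples fewer cells of a type, less RNA per cell and less RNA in the ribosome pellet cannot be told apart.

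A nerve terminal releases transmitter when calcium enters and binds synaptotagmin. SNARE proteins of the vesicle and the plasma membrane then zip together and fuse the membranes, at an active zone where RIM, Munc13, Bassoon and Piccolo hold vesicles ready. NSF and its adaptor SNAP take the spent SNARE complexes apart, and dynamin and amphiphysin help to retrieve the membrane.

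Gene counts ran from 18.6 M to 24.2 M in 11 libraries and reached 44.2 M in fear case 6. That library also stood apart in the ribosomal RNA precursor Rn45s, which took 12.5% of its gene counts and 4.55% to 7.98% in the others. Levels are given in CPM, each gene's count set against the TMM-scaled total of its library. Summed markers of hippocampal excitatory neurons (8 genes) were 657 to 728 CPM in the controls and 667 to 748 CPM in fear case, and those of neurons in general (5 genes) were 2360 to 2804 and 2367 to 2977 CPM. Choroid plexus markers (12 genes) summed to 773 to 2218 CPM in the controls, highest in control 1. They summed to 23.0 to 413 CPM in fear case 1 to 5, below every control, and to 1528 CPM in fear case 6. The part of this difference in the members' levels was not tested. Fos, an immediate early gene switched on by neuronal activity, stood at 2.29, 4.08 and 6.83 CPM (lowest, median, highest) in the controls and at 12.1, 20.6 and 33.7 CPM in fear case. It rose by 2.25 on the log2 scale (SE 0.23, edgeR adjusted p = 1.1e-05).

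None of the 36 presynaptic genes passed the test. The edgeR quasi-likelihood test with Benjamini-Hochberg adjustment over 14564 genes called 0 members, where it called 0.103% of all genes tested (0.0481% higher, 7 genes, and 0.0549% lower, 8 genes). DESeq2 and limma-voom also called 0 members, against 0.433% and 0.0824% of all genes. At an unadjusted p under 0.05 there was 1 member with each of the 3 tools, Nrxn3 with edgeR, against 7.14% of all genes with edgeR. The groups overlapped for every member, while they did not overlap for 0.59% of all genes tested (0.268% with fear case higher and 0.323% with fear case lower). Log2 fold changes of fear case over control ran from -0.15 for Stx1a to 0.20 for Pclo, 21 positive and 15 negative. Their median was 0.011, beside -0.0046 over all genes tested, and it did not keep its sign: leaving out 1 library gave -0.016 (without control 4, 17 positive and 19 negative) to 0.052 (without control 1, 22 and 14). For 30 of the 36 members the log2 fold change moved by more than 1.5 times without some library, most often without fear case 1 (23 members) or fear case 6 (20 members). Snap25, Syt4, Napb, Rims2, Bsn and Nrxn3 were the 6 that moved less. A fold change near 0 easily moves by that much, and no share over all genes is given beside this count. Together the members held 18776 ± 646 CPM in the controls and 19314 ± 509 CPM in fear case (SD, n = 6 each).

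Counts at these genes were high, and the intervals of the fold changes rest on the spread between libraries. The lowest count of a member in any library was 313, for Slc17a6, and the highest was 122078, for Snap25. The 95% interval of the fold change lay within 1.5-fold in either direction for all 36 members. The lowest bound was 0.811-fold, for Stx1a, and the highest 1.37-fold, for Pclo. These intervals are per gene, with no correction for the number of genes. They bound the differences only as far as the libraries stand for separate mice, which the labels do not state.

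**Figure D1:**
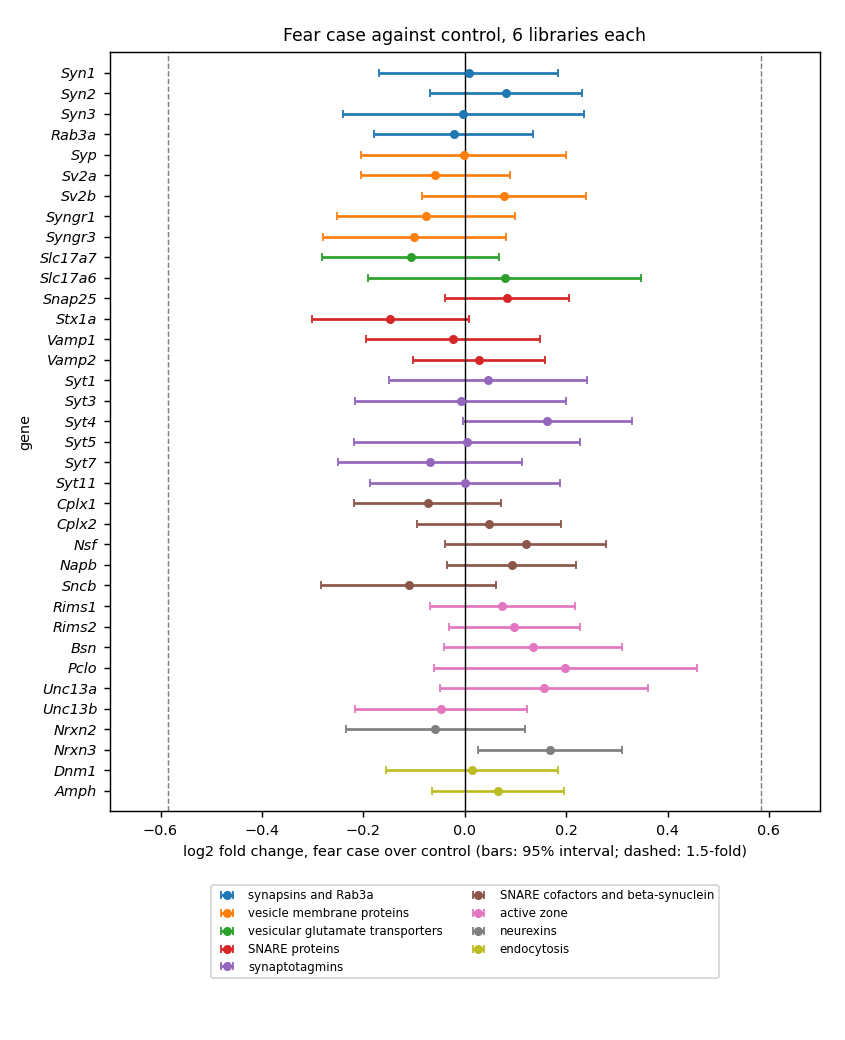
Log2 fold change of fear case over control for each of the 36 genes with its 95% interval (bars), n = 6 libraries per group, ordered by role. Every interval lies within 1.5-fold, and the interval of Nrxn3, which had an adjusted p of 0.602, is the only one that leaves out 0.

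Synapsins coat vesicles and tether them in the reserve pool. Syn1 stood at 432, 504 and 616 CPM (lowest, median and highest, here and below) in the controls and at 475, 515 and 599.9 CPM in fear case. Syn2 stood at 505, 541 and 649 CPM in the controls and at 557, 573 and 664 CPM in fear case. For both the groups overlapped, and the log2 fold changes were 0.01 (SE 0.085) and 0.08 (SE 0.072). Syn3, a synapsin of early neuronal development, ran from 27.0 to 49.3 CPM in the controls and from 33.9 to 39.3 CPM in fear case. Its exons overlap those of Timp3 on the opposite strand over 14.1% of their length, and the strand setting of the counting is unstated, so its level is uncertain. Rab3a, the vesicle GTPase that binds RIM, lay between 746 and 822 CPM in the controls and between 788 and 871 CPM in 5 fear case libraries, with 598 CPM in fear case 6.

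The promoter of Syn1 is printed because it was the only one among the members to hold the full palindromic cAMP response element, the DNA motif of CREB, a factor of activity-dependent transcription. RefSeq promoter windows (GRCm38.p6, 250 bases before to 50 after a transcription start) covered 27 of the 36 members in 36 windows. The letters searched were TGACGTCA, which read the same on both strands, and 2.62% of the 17224 counted genes with a window held them. The window of Syn1 lies on the minus strand at chrX:20920869-20921168, has a GC content of 68.3%, and the motif, in capitals, begins 159 bases before the start.
Syn1: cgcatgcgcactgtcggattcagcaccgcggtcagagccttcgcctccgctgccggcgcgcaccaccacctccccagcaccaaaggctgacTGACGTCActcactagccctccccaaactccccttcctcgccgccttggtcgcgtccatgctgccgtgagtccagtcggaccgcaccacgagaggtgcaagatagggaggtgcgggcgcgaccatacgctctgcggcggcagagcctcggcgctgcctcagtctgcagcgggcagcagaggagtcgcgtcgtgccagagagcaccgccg
The windows of Fos and Npas4 did not hold these letters. Syn1, with the motif, had a level of 519 ± 71.5 CPM in the controls and 522 ± 47.8 CPM in fear case (SD, n = 6 each).

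Vesicle membrane proteins had 1 positive and 4 negative fold changes. Syp, which encodes the abundant vesicle protein synaptophysin, stood at 513, 581 and 762 CPM in the controls and at 474, 607 and 707 CPM in fear case. Its highest library was control 1 and its lowest was fear case 1, and the log2 fold change was -0.0023 (SE 0.098). Sv2a, the target of the antiepileptic levetiracetam, stood at 189, 213 and 221 CPM against 179, 199 and 235 CPM. Sv2b, its close relative, stood at 363, 406 and 442 CPM against 345, 430 and 473 CPM. The groups overlapped for both. The synaptogyrin genes, which encode tetraspan vesicle proteins, had log2 fold changes of -0.08 (Syngr1, SE 0.085) and -0.0995 (Syngr3, SE 0.087). Both rested largely on control 1, without which they were -0.0070 and -0.02.

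Glutamate is loaded into vesicles by VGLUT1 (Slc17a7), the main form of hippocampal excitatory neurons, and by VGLUT2 (Slc17a6), the main form of thalamus and other subcortical nuclei. Slc17a7 stood at 533, 590 and 754 CPM in the controls and at 465, 557 and 620 CPM in fear case. Slc17a6 stood at 17.0, 19.5 and 23.6 CPM against 13.3, 21.7 and 25.7 CPM. The groups overlapped for both, and the log2 fold changes were -0.11 (SE 0.084) and 0.08 (SE 0.13). Without control 1, its highest library, Slc17a7 stood at -0.03. Slc17a6 stood at 0.0053 without fear case 6 and at 0.18 without fear case 1. Thalamus markers (12 genes) summed to 141 to 194 CPM in the controls and 130 to 163 CPM in fear case, and their part in the level of Slc17a6 was not tested.

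SNARE genes included the most abundant member and the most negative fold change. Snap25 (chromosome 2, 136713453 to 136782428, GRCm38), a plasma membrane SNARE, stood at 2758, 2930 and 3120 CPM in the controls and at 2992, 3053 and 3348 CPM in fear case. Its log2 fold change was 0.08 (SE 0.059, adjusted p = 0.797), the smallest standard error among the members. Its partner Stx1a (chromosome 5, 135023482 to 135051100), the syntaxin of the plasma membrane, stood at 131, 147 and 156 CPM against 105, 134 and 145 CPM. Fear case 6 was the lowest library and lay below every control, while the other 5 lay within the controls' range. The log2 fold change of Stx1a was -0.15 (SE 0.075, adjusted p = 0.716), and -0.09 without fear case 6. Vamp2, the vesicle SNARE of forebrain terminals, stood at 997, 1043 and 1129 CPM against 983, 1069 and 1188 CPM. Vamp1, its relative of brainstem and spinal cord, stood at 66.7, 70.3 and 73.7 CPM against 52.0, 72.6 and 77.6 CPM, again with fear case 6 lowest.

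Synaptotagmins sense calcium or, in forms that bind it poorly, act in membrane traffic. Syt1, the fast calcium sensor of release, stood at 1110, 1304 and 1490 CPM in the controls and at 1058, 1322 and 1734 CPM in fear case. Its log2 fold change was 0.05 (SE 0.094) and turned to -0.04 without fear case 6. Syt4, a form known to be induced by activity, stood at 120, 134 and 141 CPM against 112, 150.4 and 168 CPM. In 5 of 6 fear case libraries Syt4 lay above every control, and in fear case 1 it lay below every control. The log2 fold change was 0.16 (SE 0.081, adjusted p = 0.709), and 0.23 without fear case 1 (adjusted p = 0.303). The other 4 had log2 fold changes of -0.07 (Syt7, a slow, high-affinity calcium sensor), -0.0076 (Syt3), 0.0041 (Syt5) and 0.00076 (Syt11, a form that binds no calcium).

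Of the factors that guard and recycle SNARE complexes 3 had positive and 2 had negative fold changes, and 0 passed the test. Nsf, the ATPase that takes the complexes apart, stood at 956, 1025 and 1246 CPM in the controls and at 1046, 1158 and 1343 CPM in fear case, a log2 fold change of 0.12 (SE 0.076). Napb, which encodes its adaptor beta-SNAP, lay above every control in 3 of 6 fear case libraries, at a log2 fold change of 0.09 (SE 0.061). The complexins clamp and assist fusion, and Cplx1 and Cplx2 had log2 fold changes of -0.07 (SE 0.070) and 0.05 (SE 0.069). Sncb, which encodes the presynaptic beta-synuclein, stood at 416, 438 and 458 CPM against 304, 410 and 483.5 CPM. The lowest value was fear case 6, and the log2 fold change went from -0.11 to -0.04 without it.

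Of the 6 active zone genes 5 had positive log2 fold changes (median 0.12), and 0 passed the test. This median was the highest of the role groups with all libraries, but without fear case 6 it was 0.052, level with that of the endocytosis genes (0.052). Pclo (chromosome 5, 14514918 to 14863459), which encodes the scaffold Piccolo, stood at 355, 457 and 503 CPM in the controls and at 422, 462 and 789 CPM in fear case. The highest value was fear case 6, and the other 5 lay inside the controls' range. Without fear case 6 the log2 fold change of Pclo went from 0.20 (SE 0.12, adjusted p = 0.769) to 0.03. Unc13a, encoding the vesicle priming factor Munc13-1, stood at 130, 153 and 177 CPM against 145, 165 and 225 CPM, and its log2 fold change went from 0.16 to 0.06 without fear case 6. Exons of Unc13a overlap those of Colgalt1 on the opposite strand over 3.92% of their length. Bsn, encoding the second large scaffold Bassoon, stood at 374.5, 423 and 526.1 CPM against 428, 489 and 521 CPM, with log2 fold changes of 0.13 with all libraries and 0.11 without fear case 6. Rims2, a RIM gene, lay above every control in 4 of 6 fear case libraries, at 166, 182 and 194 CPM against 178, 198 and 209 CPM. Its log2 fold change was 0.0975 (SE 0.062, adjusted p = 0.770), and that of Rims1 was 0.07. Unc13b, encoding Munc13-2, was the only negative one at -0.05.

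Neurexins are presynaptic adhesion molecules that bind neuroligins across the cleft. Nrxn3 (chromosome 12, 88722876 to 90334935) stood at 152.6, 169 and 175 CPM in the controls and at 165, 188 and 210.3 CPM in fear case. In 4 of 6 fear case libraries it lay above every control. The log2 fold change was 0.17 (SE 0.068, unadjusted p = 0.0228, adjusted p = 0.602). Nrxn2 had a log2 fold change of -0.06 (SE 0.085), with its highest library, control 1, at 309.9 CPM, and stood at 0.02 without that library. Exons of Nrxn2 overlap those of Slc22a12 on the opposite strand over 4.94% of their length, which also touches the ratio of Nrxn2 to Nrxn3. Of the endocytosis genes, Dnm1, encoding neuronal dynamin, stood at 1226, 1356 and 1624 CPM against 1278, 1379 and 1649 CPM, a log2 fold change of 0.01 (SE 0.082). Amph, encoding the dynamin partner amphiphysin, had one of 0.07 (SE 0.062).

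Beyond the list, 64 other presynaptic genes were read from the same fit, of which 63 were tested. Of these 0 were called, 35 were positive and 28 negative. With edgeR 5 had an unadjusted p under 0.05, a share of 7.94%, near the 7.14% over all genes. DESeq2 and limma-voom called 0 and had 6 and 5 at that unadjusted threshold. The lowest p belonged to Ppfia2, encoding the active zone scaffold liprin-alpha-2, at 326, 342 and 363 CPM in the controls and 343, 404 and 427.5 CPM in fear case. In 5 of 6 fear case libraries it lay above every control, and the log2 fold change was 0.22 (SE 0.064, adjusted p = 0.285). Exons of Ppfia2 overlap those of Acss3 on the opposite strand over 22.3% of their length, so its level is uncertain in the same way as that of Syn3. Cadps2 and Cadps encode CAPS proteins, which prime dense-core vesicles, and neither passed the test. On the log2 scale fear case differed from control by 0.22 for Cadps2 (adjusted p = 0.290) and by 0.21 for Cadps (adjusted p = 0.602). Cadps2 had an adjusted p of 0.0530 without fear case 6. Stxbp5l and Stxbp5, encoding the syntaxin-binding tomosyns, stood at 0.17 and 0.13, and Syt2, a fast calcium sensor of hindbrain terminals, at -0.35 (SE 0.16).

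**Figure D2:**
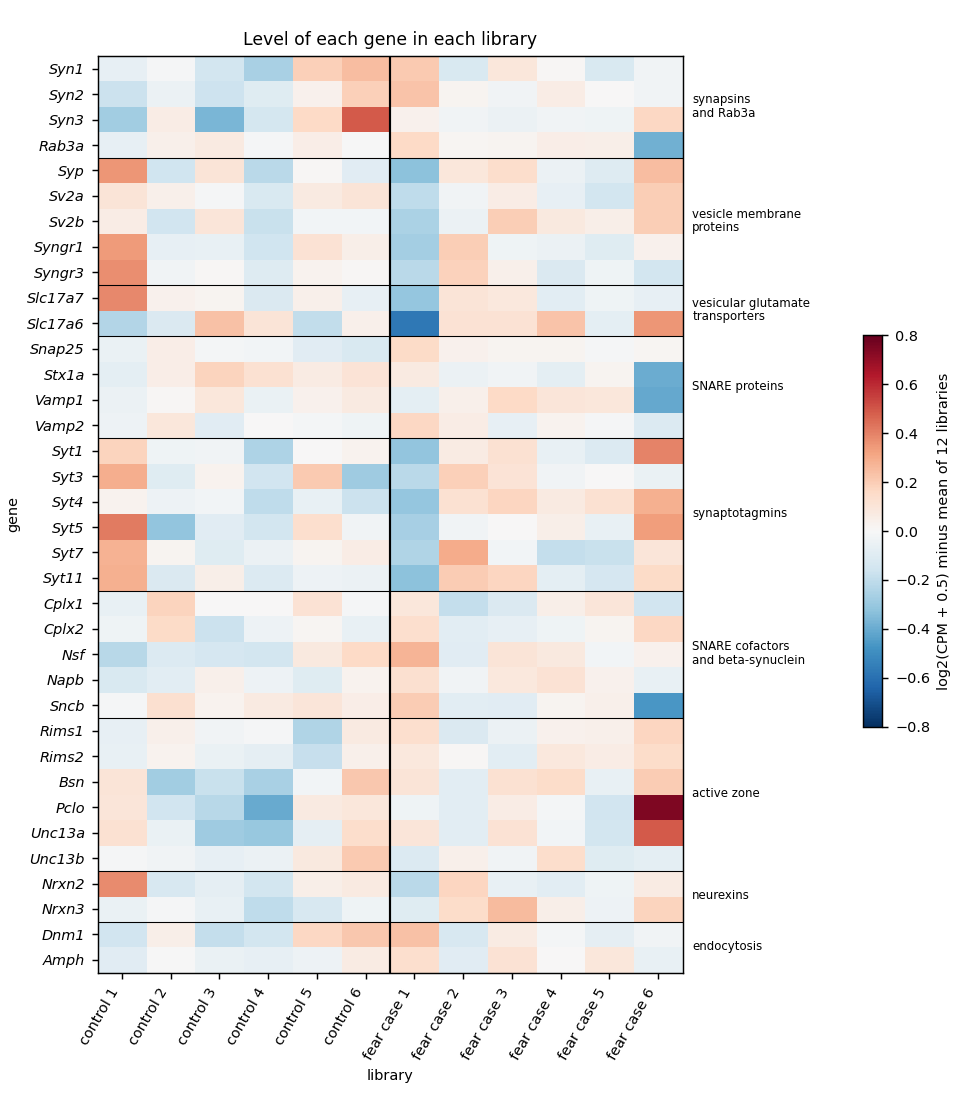
Log2 deviation of each of the 36 genes from its own mean over the 12 libraries (colour), with genes in rows by role and libraries in columns. The strongest colour is the high value of Pclo in fear case 6 (789 CPM), and synaptophysin, synaptogyrin and synaptotagmin genes are mostly high in control 1 and low in fear case 1.

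Across genes, levels can be compared only per length. Per kilobase of all annotated exons, Snap25 was highest at 443 ± 22.2 CPM per kb (SD over 12 libraries), followed by Cplx2 at 383 ± 27.98 and Rab3a at 352 ± 29.6. Cplx1, Vamp2 and Dnm1 followed at 288, 279 and 268 CPM per kb. At the low end stood Vamp1 at 6.85 ± 0.65, Slc17a6 at 3.76 ± 0.64, Syn3 at 2.88 ± 0.47 and Unc13b at 1.28 ± 0.092 CPM per kb. Of the 36 members, 33 lay above the median of the 14030 tested genes with an exon length. Most neighbours in this order could not be ranked, since in 8 of 35 neighbouring pairs the lower gene was lower in every library. With the longest transcript in place of all exons no gene moved by more than 6 ranks.

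**Figure D3:**
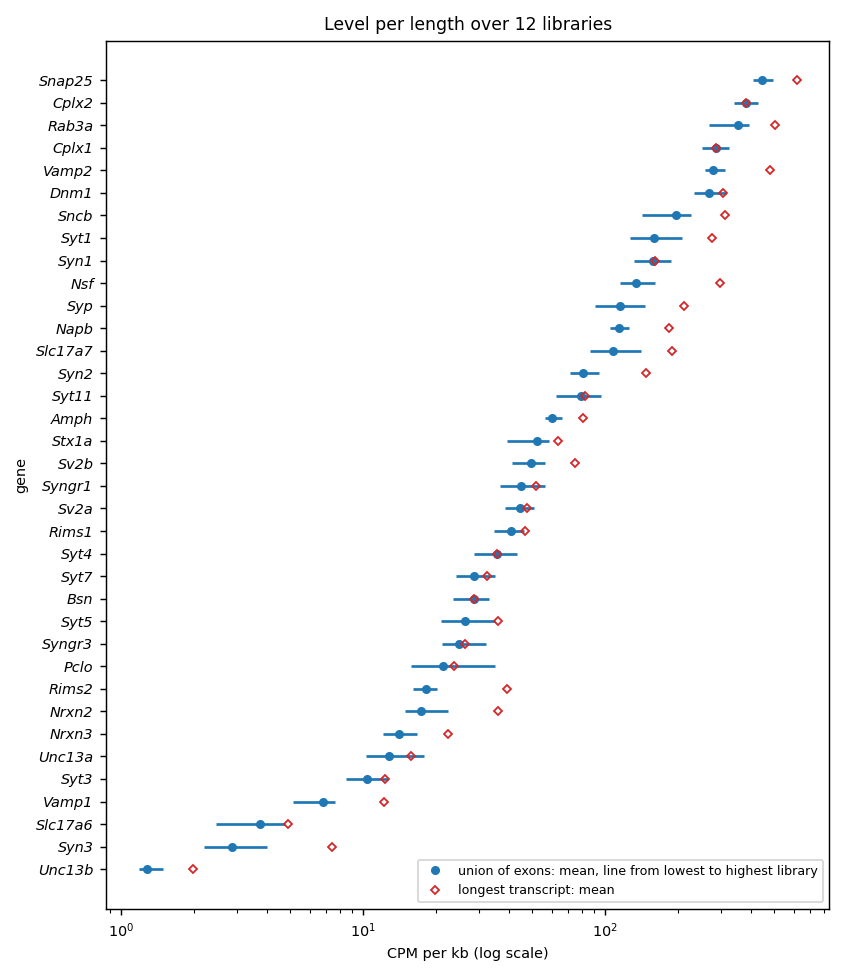
Level per kilobase of exon (log axis, CPM per kb) of the 36 genes, ordered from Snap25 at 443 to Unc13b at 1.28, as the mean over 12 libraries for the union of exons (filled points, lines from the lowest to the highest library) and for the longest transcript (open points). Lines of most neighbouring genes overlap.

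Relatives of some families stood at clearly unequal levels. Per kilobase, Vamp2 was 41.0 ± 4.62 times Vamp1, Slc17a7 was 29.4 ± 6.34 times Slc17a6, and Unc13a was 10.04 ± 1.78 times Unc13b (SD over 12 libraries). Each of these 3 ratios was above 1 in 12 of 12 libraries. Other pairs were closer, with Rims1 at 2.25 times Rims2, Syn1 at 1.95 times Syn2, Bsn at 1.37 times Pclo and Cplx2 at 1.34 times Cplx1. With the longest transcript as length, the ratio of Rims1 to Rims2 became 1.19 and that of Syn1 to Syn2 became 1.08.

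Ratios within a library need no scaling, and 11 pairs were compared between the groups with an exact two-sided permutation test over all relabellings of the libraries, whose smallest p is 0.0022. After Benjamini-Hochberg adjustment over the 11 pairs 0 passed. At an unadjusted p under 0.05 there were 2. The log2 ratio of Nrxn2 to Nrxn3 was 0.55 ± 0.19 in the controls and 0.33 ± 0.12 in fear case (SD, n = 6 each), a difference of -0.22 (exact permutation p = 0.0325, adjusted 0.262). That of Sv2a to Sv2b was -0.94 ± 0.10 and -1.07 ± 0.10, a difference of -0.13 (exact permutation p = 0.0476, adjusted 0.262).

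Among single libraries, the members' levels differed along with the place where the proteins are made. The members were divided, from background knowledge and after the values were seen, into 15 whose proteins are inserted into the endoplasmic reticulum during translation and 21 whose proteins are made on free ribosomes, the tail-anchored SNAREs among them. What follows is therefore a description with no test. Control 1 and fear case 1, compared below, had the highest and lowest median deviation of the inserted members (0.28 and -0.27, log2 scale). Counts of inserted members between these libraries therefore partly restate that choice. All 15 of the inserted kind (synaptophysin, SV2, synaptogyrin, VGLUT, synaptotagmin and neurexin genes) were higher in control 1 than in fear case 1, by a median of 0.52 on the log2 scale. Of the 21 others 5 were (Vamp1, Bsn, Pclo, Unc13a and Unc13b), and their median difference was -0.21. Over all genes tested 50.01% were higher in control 1.

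Fear case 1 was the lowest of the 12 libraries for 12 of the 15 inserted members, against 1 of the 21 others and 11.3% of all genes. It was the highest for 9 of the 21 others, against 0 of the 15 and 8.26% of all genes. Within fear case, fear case 2 was above fear case 1 for 15 of 15 inserted members and for 2 of the 21 others. Over all genes tested 50.65% were higher in fear case 2. The median deviation of the 21 others was lowest of all libraries in fear case 2 (-0.08) and highest in fear case 1 (0.13). These counts therefore also partly restate the choice of libraries. Summed, the 15 inserted members ran from 3824 CPM in fear case 1 to 5512 CPM in control 1, and the 21 others from 13521 CPM in control 3 to 15987 CPM in fear case 1.

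Genes of the inserted kind outside the list shared the difference between control 1 and fear case 1, but not all of the pattern. Other presynaptic genes made in the cytosol were not counted. Of 15 other presynaptic genes of the inserted kind 14 were higher in control 1 than in fear case 1, all but Syt6. Of 16 transmitter receptor subunits 15 were, all but Gabra3. Fear case 1 was the lowest of the 12 libraries for 6 of the 15 and for 8 of the 16, and control 1 was the highest for 4 of the 15 and 2 of the 16, where it was the highest for 12.1% of all genes. The median deviation of the receptor subunits was highest in fear case 6 (0.35) and lowest in control 4 and control 2 (-0.20 and -0.19).

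Cell type markers differed between control 1 and fear case 1 as well. The summed general neuron markers (5 genes) were lowest of all libraries in control 1 (2360 CPM) and highest in fear case 1 (2977 CPM), opposite to the inserted members. The members made in the cytosol were also highest in fear case 1. Their lowest sum was in control 3 (13521 CPM), with 13623 CPM in control 1. Glial and other markers were higher in control 1, with 77.05 against 39.3 CPM for microglia (5 genes), 488 against 347 CPM for astrocytes (5 genes) and 1728 against 1361 CPM for oligodendrocytes (5 genes). Endothelial markers (4 tested genes) stood at 9.57 against 5.66 CPM and choroid plexus markers at 2218 against 413 CPM. Hippocampal excitatory neuron markers (8 genes) were close only when summed, at 709.97 and 725 CPM. Their median log2 deviation was 0.288 in control 1, the highest of all libraries, and -0.026 in fear case 1. In control 1, 6 of the 8 lay above their own mean over all libraries, and in fear case 1, 3 of the 8 did. The part of these cells in the pattern was not tested.

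**Figure D4:**
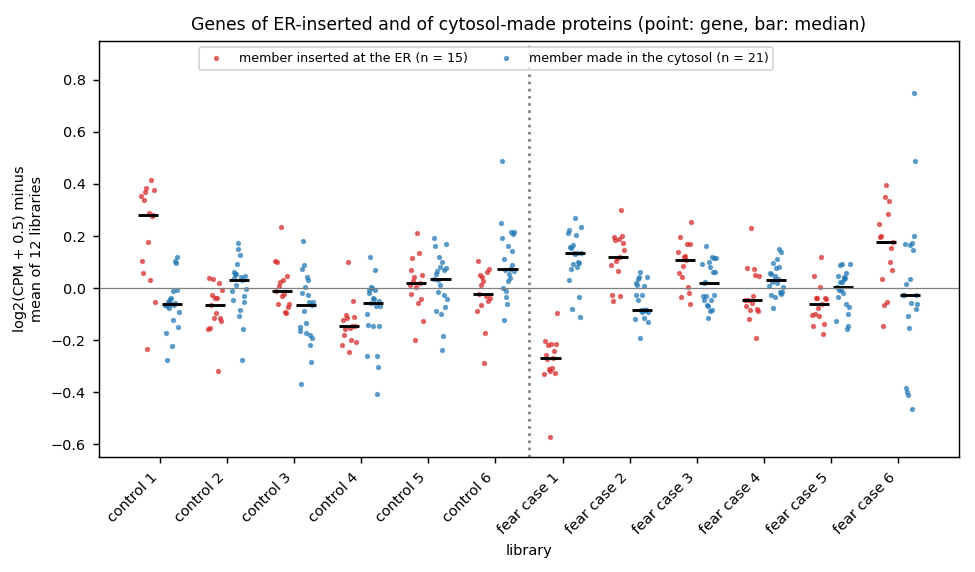
Log2 deviation of each gene (points) from its own mean over 12 libraries, with the median as a bar, by library, for members whose proteins are inserted at the endoplasmic reticulum (15 genes) and for those made in the cytosol (21 genes). The median of the inserted kind is lowest in fear case 1 (-0.27) and highest in control 1 (0.28), while that of the other kind is highest in fear case 1 (0.13).

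In fear case 6 the members' levels went both with the length of the transcript and with the place where the protein is made. Fear case 6 was the highest of 12 libraries for 10 members (Sv2a, Sv2b, Slc17a6, Syt1, Syt4, Cplx2, Rims1, Rims2, Pclo and Unc13a), where it was the highest for 12.8% of all genes. It was the lowest for 5 (Rab3a, Stx1a, Vamp1, Vamp2 and Sncb), where it was the lowest for 15.0% of all genes. As a share of the 36 members these 5 are no more than that over all genes. The median longest transcript was 4.87 kb for the 10 and 2.17 kb for the 5. All 5 lowest were of the kind made in the cytosol, while the 10 highest were 5 of each kind. Against the mean of the other fear case libraries, 12 of the 15 inserted members were higher in fear case 6 (median log2 difference 0.19) and 7 of the 21 others were (median -0.04). The median longest transcript of these classes was 4.18 kb and 4.61 kb, and length and place were not tested apart.

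By length, the 12 shortest members (1.35 to 3.37 kb) had a median log2 difference of fear case 6 from the mean of the other fear case libraries of -0.12, with 2 positive. The 12 of 3.77 to 4.88 kb had 0.10, with 7 positive, and the 12 longest (4.93 to 20.1 kb) had 0.16, with 10 positive. Vamp1 and Unc13b were the 2 negative ones among the longest, and Syt5 and Syp the 2 positive ones among the shortest. This too was seen first and is given with no test. No counts by length or place over all genes are given, so the pattern may not be particular to the members. Fear case 6 differed from the others in depth and in the share of Rn45s as well, and the part of either was not tested. Without fear case 6 the members had a median log2 fold change of 0.016, with 21 positive and 15 negative and 0 called, while 128 of all genes were called.

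**Figure D5:**
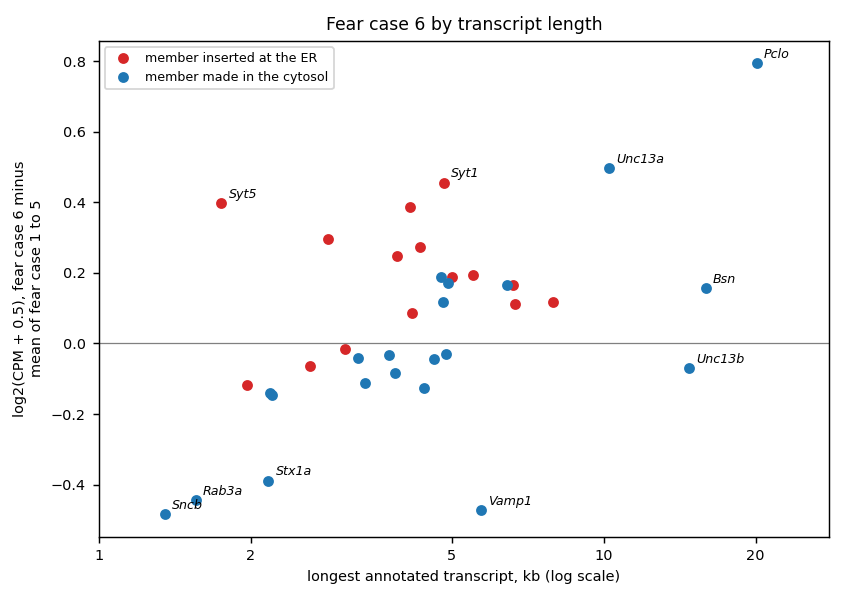
Log2 difference of fear case 6 from the mean of the other 5 fear case libraries against the length of the longest transcript (kb, log axis) for the 36 genes (points, coloured by where the protein is made). Sncb and Rab3a, short, lie below 0 and Pclo, at 20.1 kb, lies above 0, with Syt5 (short, high) and Vamp1 and Unc13b (long, low) as exceptions.

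Spread among libraries was about as large for these genes as for others of similar level. The median within-group SD of the members was 0.155 on the log2 scale, from 0.060 for Snap25 to 0.277 for Pclo, and 0.142 for the 7339 genes tested in the same range of CPM.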

How the data were processed

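Polyribosomal RNA of 12 hippocampus libraries, 6 control and 6 fear case, was sequenced as read pairs of 40 bp, per the labels' protocols. The values are counts of reads per gene, deposited by the authors as whole numbers. Per the submitters' processing notes, cutadapt, TopHat, Bowtie and HTSeq were used with mm10. Their versions, the annotation and the strand setting are not stated in the sources at hand. Summary lines that name no gene were left out of library sizes, among them reads in no feature (25.5% to 33.3% of gene, no-feature and ambiguous counts together) and ambiguous reads (0.453% to 0.550%).

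Genes were filtered with filterByExpr (minimum count 10), scaled with TMM and tested with the quasi-likelihood test of edgeR 4.0.16 in R 4.3.3, with no covariate, Benjamini-Hochberg adjustment over 14564 genes and calls at an adjusted p under 0.05. DESeq2 1.42.0, limma 3.58.1 (voom), 2 other scalings, no filter, a replicate block and leaving out each library were alternatives. The steps were tested on simulated data. No 2 libraries of a group agreed within counting noise (chi-square per degree of freedom 8.18 or more).

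The text names all 36 members, the 6 other presynaptic genes of lowest p, and Fos and Npas4 as reference. The members and lists were chosen with earlier results of these data known. Npas4 stood at 5.12 ± 1.34 CPM in the controls and 21.4 ± 4.62 CPM in fear case (SD, n = 6 each). Exon lengths, positions and overlaps come from GENCODE vM21 (GRCm38), which matched 23384 of 24421 symbols and 36 of 36 members. Other marker lists, summed in CPM for controls and fear case, were interneurons (460 to 544, 478 to 549), astrocytes (360 to 488, 347 to 495), oligodendrocytes (1548 to 2056, 1361 to 2115), microglia (43.3 to 77.05, 39.3 to 69.6) and endothelial cells (8.84 to 11.1, 5.91 to 11.6), with 0 genes called in any.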

Additional observations from a re-analysis of the deposited data

Results flagged for a closer look

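In 11 of 106 groups of 6 libraries examined (the 36 members, the 6 other named presynaptic genes and the 11 paralog ratios, in each group), 1 library lay far from the other 5. The gap to its neighbour was more than 0.625 of the group's range. Chance gives about 1 in 20 groups, and the genes share libraries, so these are not 11 separate events. Fear case 6 accounted for 6 of them. It was high for Syn3 (39.3 CPM, others up to 35.8), Pclo (789 CPM, others up to 490.4) and Unc13a (225 CPM, others up to 173.5). It was low for Rab3a (598 CPM, others from 788), Stx1a (104.5 CPM, others from 131) and the log2 ratio of Bsn to Pclo (-0.60, others from -0.05). Fear case 1 was high for Syn2 (664 CPM, others up to 592) and Snap25 (3348 CPM, others up to 3084). Control 1 was high for Syngr3 (66.3 CPM, others up to 52.3) and Slc17a7 (754 CPM, others up to 595). Fear case 2 was low for Ppfia2 (343 CPM, others from 402).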

How the results depend on the processing

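Over 18 alternatives, 648 values of the members gave 0 calls, with a lowest adjusted p of 0.303 (edgeR, Syt4 without fear case 1). The sign held for 24 members. The other 12, all near 0, changed sign somewhere. Library totals alone gave -0.021 for Syn1, -0.0016 for Vamp2, -0.035 for Syt5, -0.036 for Syt11 and -0.015 for Dnm1, with the median of all genes at -0.038 and of the members at -0.018. Syt11 was -0.00055 with DESeq2 scaling, -0.00056 with DESeq2 and -0.0041 with limma-voom, which gave 0.032 for Syn3 and 0.00060 for Syp. The replicate block gave 0.021 for Syn3, 0.00045 for Syp, 0.0021 for Syt3 and -0.0042 for Syt11, and called 0 members and 18 genes. The numbers share no stated origin: same-number correlations were -0.27 to 0.11, and 1 of 6 was its own best partner. Leaving out 1 library gave -0.037 to 0.061 for Dnm1, -0.10 to 0.023 for Nrxn2, -0.059 to 0.042 for Rab3a, -0.037 to 0.063 for Syn1, -0.068 to 0.12 for Syn3, -0.056 to 0.079 for Syp, -0.039 to 0.10 for Syt1, -0.041 to 0.064 for Syt11, -0.062 to 0.058 for Syt3, -0.073 to 0.10 for Syt5, -0.058 to 0.046 for Vamp1 and -0.0063 to 0.051 for Vamp2. For the log2 ratios it gave -0.068 to 0.074 (Bsn to Pclo), -0.011 to 0.043 (Syngr1 to Syngr3) and -0.0040 to 0.072 (Syt1 to Syt11), and none of the 154 ratio values under any alternative was called. Over all genes, 7 were called higher and 8 lower, against 26 lower with library totals alone, 11 and 26 with no filter, 13 and 50 with DESeq2 and 5 lower with limma-voom. Leaving out 1 library gave 6 to 12 higher and 3 to 116 lower, the most without fear case 6. The cause of these shifts was not tested.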
